A study of Mus musculus with 6 samples.

Results

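Integrins are the receptors by which cells hold on to extracellular matrix and to each other, and laminins are the cross-shaped proteins of the basement membrane that several integrins bind. The genes of both families were read on whole-genome Affymetrix mouse arrays of sorted dermal fibroblasts. The members are all probe sets whose platform annotation names a single gene with a symbol that begins with Itga or Itgb, or a laminin chain of the Lama, Lamb or Lamc series. This rule found 84 probe sets of 34945 that name 1 gene, and they belong to 39 of 18193 genes, 29 with an integrin prefix and 10 laminin chains. Of the 39 genes, 4 were set apart as leukocyte chains (Itgal, Itgam, Itgax and Itgb2), 3 as epithelial chains (Itga6, Itgb4 and Lama3), 28 are other chains, and 4 share the prefix but encode no chain. Itga11 and Itgad were not analysed here.

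The samples were fibroblasts from the ears of male mice 4 months old, sorted by flow cytometry for the surface receptor PDGFRα. Cancer-associated fibroblasts (CAF, 3 arrays) were taken from K14-HPV16 mice whose ears showed visible dysplasia. These mice carry genes of a human papillomavirus under a keratin promoter of basal keratinocytes, so that the transgene is driven in the epidermis and not in the fibroblasts. Normal dermal fibroblasts (NDF, 3 arrays) were taken from the normal ears of FVB/n mice without the transgene. The labels call the arrays biological repetitions and name 15 mice per genotype, without saying whether each repetition was its own pool, so the spread in the tests is that among 3 samples of a group. All values are log2 intensities after RMA, in which dim probe sets are compressed towards a floor. Precision is limited by the number of arrays. The brightness of a probe set depends on its probes, so levels of different genes are not ranked.

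The sort marker Pdgfra averaged 12.46 ± 0.15 on NDF and 12.54 ± 0.11 on CAF arrays (log2 ± SD, n = 3), and the other fibroblast markers were present in both groups. CAF replicate 3 stood apart from the other arrays. It correlated with them at 0.913 to 0.932 over all probe sets, while the other 5 arrays correlated with each other at 0.960 or more, and differences of over 0.3 log2 units in size that move by over 1.5 times without it are given both ways. Markers of other cells separated the groups. Of keratinocyte genes 9 of 11, of macrophage and dendritic cell genes 10 of 12, of neutrophil genes 7 of 10, of T cell genes 5 of 9 and of endothelial genes 9 of 12 had every CAF array above every NDF array (6.78% of all genes). In sorted bulk RNA, more cells of a type and more RNA per cell cannot be told apart.

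An integrin is a pair of an α and a β subunit, and the pair decides what it binds. The β2 family with αL, αM or αX is carried by leukocytes and grips ICAM molecules on vessels and other cells. The pair of α6 and β4 anchors basal keratinocytes to the laminin of the skin basement membrane through hemidesmosomes. Fibroblasts hold collagen, fibronectin and other matrix through β1 pairs and αv pairs. A laminin joins an α, a β and a γ chain.

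No integrin or laminin gene passed the test between CAF and NDF. By limma with Benjamini-Hochberg adjustment over all 18193 genes, 0 of the 39 genes had an adjusted p under 0.05, where 0.517% of all genes did. An unadjusted p below 0.05 was reached by 7 genes with a higher CAF mean and 0 with a lower one, against 4.93% and 4.02% of all genes. These were Itga1, Itgb8, Itgb7, Itgb2, Itga6, Itgae and Itgal. With all arrays that is 7 members in both directions together (8.95% of all genes). Without CAF replicate 1 the number was 14, of which 6 had a lower CAF mean (10.7% of all genes), and without CAF replicate 3 it was 10, of which 1 was lower (12.5%). Leaving out each of the other arrays gave 6 to 8. With all arrays included, every CAF array lay above every NDF array for the 7 genes named and for Itgax, where 6.78% of all genes did so, and below for Itga5 alone, where 8.66% did so. In all 9 of 39 members separated the groups (23.1%), against 15.4% of all genes. The median difference (CAF minus NDF, log2) was -0.033 over the members and -0.037 over all genes. It was 0.14 over the 25 integrin chains and -0.14 over the 10 laminin chains. The 95% interval stayed within 1 log2 unit of 0 for 17 genes, among them Itgav, Itgb1, Lamb1 and Lama4, and reached past it for 22, so differences of 2-fold were not bounded for the latter. The 17 include Itgam, Itga2, Itga7, Itgb6, Lama1 and Itgb1bp2, with both group means under the median probe set. Values there are compressed, so their intervals do not bound a 2-fold difference either. The 17 also include Itgb5, which has dimmer probe sets with intervals reaching to -2.07 and -1.94.

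**Figure D1:**
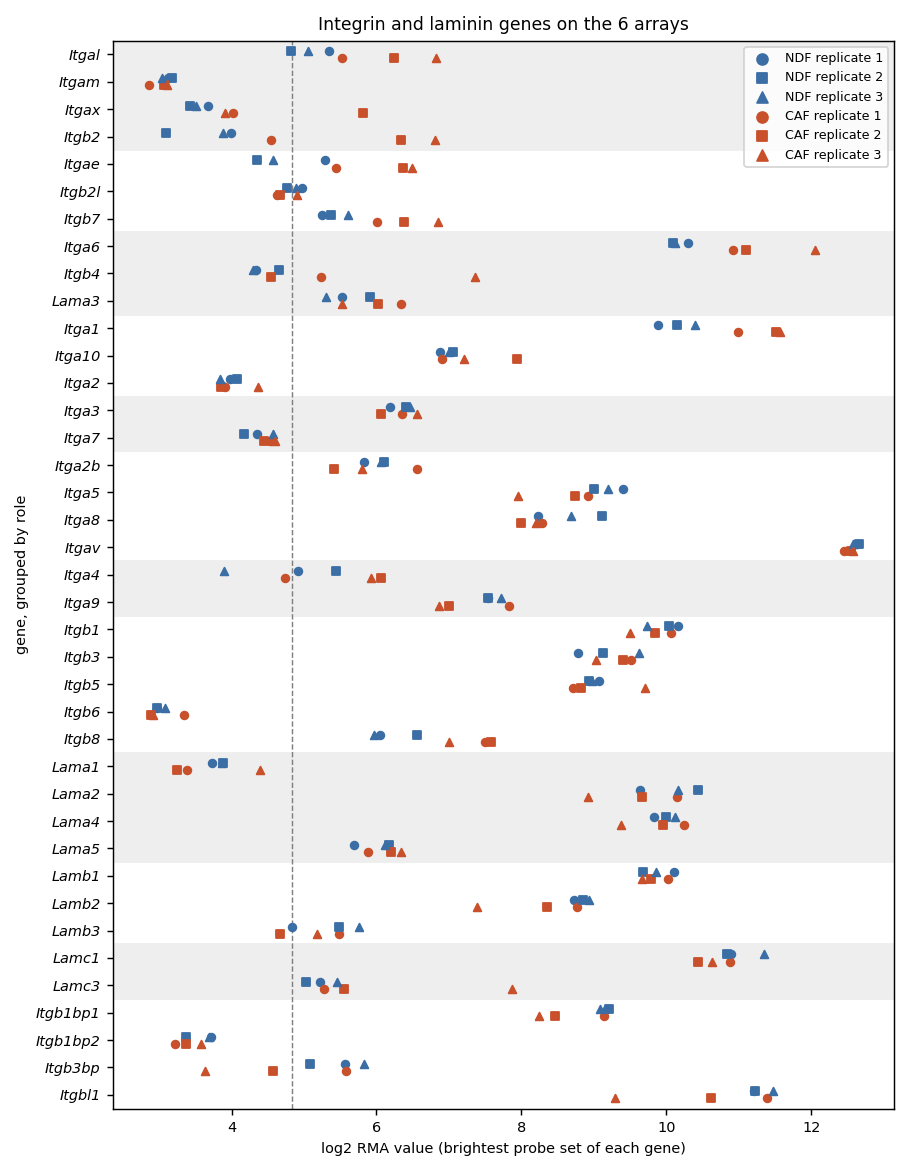
Log2 RMA values of the 39 genes on each array, for the brightest probe set of each gene, with NDF in blue and CAF in red, a symbol for each replicate, and shading by role. The dashed line is the median probe set (4.84), and the CAF points of Itgb2, Itgal, Itgae, Itgb7, Itga6, Itga1, Itgb8 and Itgax lie to the right of the NDF points.

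**Figure D2:**
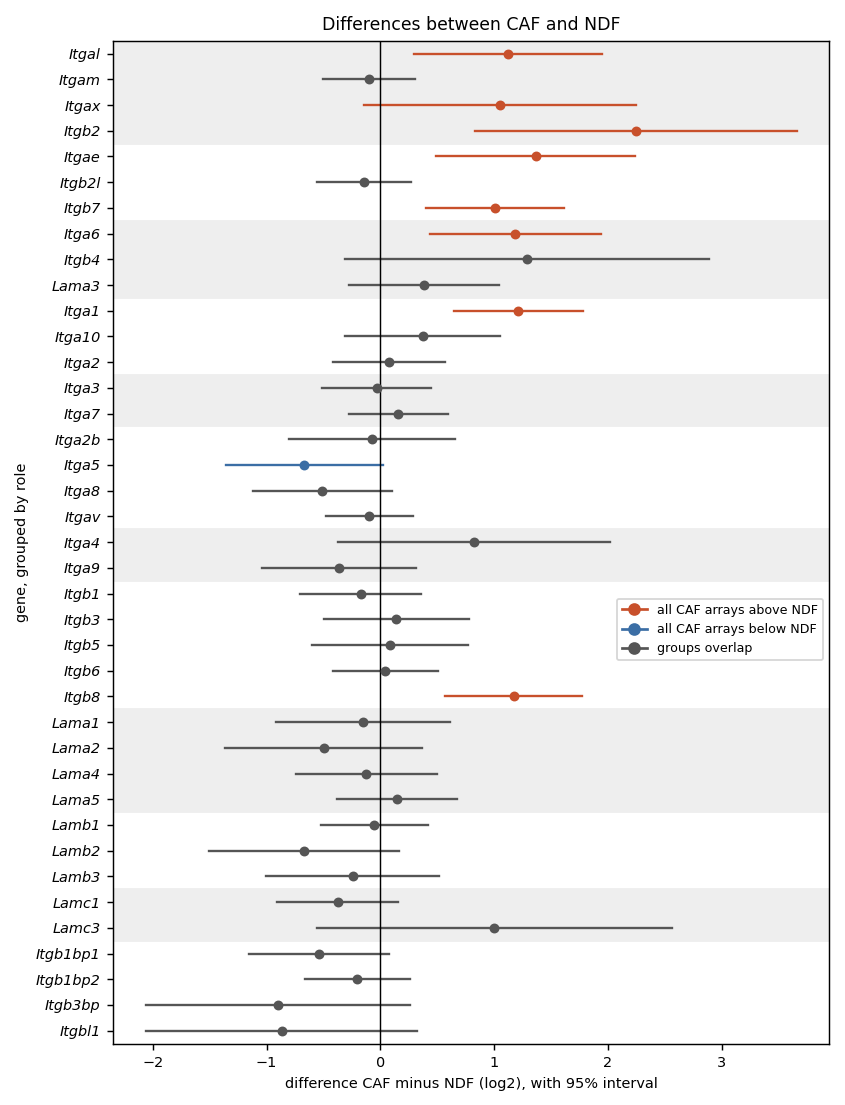
Difference between CAF and NDF (log2) for each gene, with the 95% interval of the limma fit, coloured by whether the arrays of both groups overlap. The highest difference is that of Itgb2 at 2.24 and the lowest that of Itgb3bp at -0.90, and no gene passed an adjusted p of 0.05.

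The β2 subunit that all leukocyte pairs share had the highest difference of any member. Itgb2 read 3.99, 3.09 and 3.88 on the NDF arrays and 4.54, 6.34 and 6.81 on the CAF arrays. All 3 CAF arrays were higher, and they spread over 2.27 log2 units. The NDF arrays and CAF replicate 1 were under the median probe set (4.84). The difference was 2.24 ± 0.59 (SE), or 4.74-fold on this scale, with an interval of 0.83 to 3.66 and a limma adjusted p of 0.253. Without CAF replicate 1, its lowest CAF array, the difference was 2.92 and the adjusted p 0.0445, so that array decides the call. The difference was 1.79 without CAF replicate 3 (adjusted p = 0.26) and 1.38 with array quality weights (adjusted p = 0.24).

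The α partners of β2 did not all follow it. Itgal, whose product pairs with β2 in the lymphocyte receptor LFA-1, read 5.34, 4.82 and 5.06 on the NDF arrays and 5.52, 6.24 and 6.82 on the CAF arrays. Its difference was 1.12 ± 0.35 (adjusted p = 0.358). A dimmer probe set of the gene gave 0.14, and array quality weights gave 0.69. Itgax, a subunit typical of dendritic cells and macrophages, read 3.67, 3.42 and 3.51 on the NDF arrays and 4.03, 5.82 and 3.92 on the CAF arrays. The groups do not overlap, but CAF replicate 2 was far above the other 2 CAF arrays. The difference was 1.05 ± 0.50 (adjusted p = 0.63), and 0.43 without that array. Itgam, the subunit of the complement receptor of neutrophils and macrophages, read 3.12, 3.17 and 3.04 on the NDF arrays and 2.86, 3.07 and 3.11 on the CAF arrays. Its only probe set was under the median probe set on every array, and the groups overlap, with a difference of -0.098 ± 0.17 (adjusted p = 0.944). Of the neutrophil list, S100a8 averaged 6.15 ± 1.56 on NDF and 12.18 ± 0.47 on CAF arrays. S100a9 averaged 6.28 ± 2.14 on NDF and 12.26 ± 0.52 on CAF arrays. On NDF replicate 1 they read 7.93 and 8.48, the highest of the NDF arrays. The neutrophil granule genes Camp, Ltf and Ngp were also under the median probe set on every array. Mmp9 of the same list averaged 4.92 on NDF and 7.85 on CAF arrays. Of the 10 measured neutrophil genes, 7 were higher on every CAF array (6.78% of all genes).

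The marker lists of macrophages and dendritic cells, neutrophils and T cells are given beside these chains. The summed level (log2 of the summed intensities) was 9.30 to 9.68 on the NDF arrays and 11.31 to 12.70 on the CAF arrays for macrophages and dendritic cells. For neutrophils it was 7.54 to 9.56 on the NDF arrays and 13.03 to 14.20 on the CAF arrays. For T cells it was 7.14 to 7.54 on the NDF arrays and 8.38 to 10.10 on the CAF arrays, with Cd27, Cd5 and Trat1 under the median probe set throughout. No groups overlap in these sums. CAF replicate 1 was the lowest CAF array in all 3 sums, as it was for Itgb2 and Itgal. Not every single marker had this order. On the CAF arrays Tyrobp read 7.66, 8.68 and 8.59 and Lyz2 read 9.26, 9.32 and 11.46, lowest in replicate 1. Ptprc read 8.06, 9.44 and 7.83 and Cd14 read 8.86, 10.29 and 8.63, lowest in replicate 3. The part of these cells in the differences of the leukocyte chains was not tested.

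Itgam and Itgax are neighbours on chromosome 7 in assembly GRCm38.p6, and their promoters are shown as those of 2 myeloid subunits. Both had their higher group mean under the median probe set. Neither a difference between the 2 genes nor the part of any motif in their values was tested. Each line gives the 250 bases before the RefSeq gene start, 5′ to 3′ on the plus strand, at chr7:128062390-128062639 for Itgam and chr7:128129300-128129549 for Itgax. Capitals mark matches to either of 2 motifs, searched on both strands and chosen with results known, GAGGAAG for ETS factors in Itgam and TGANTCA for AP-1 in Itgax.
Itgam: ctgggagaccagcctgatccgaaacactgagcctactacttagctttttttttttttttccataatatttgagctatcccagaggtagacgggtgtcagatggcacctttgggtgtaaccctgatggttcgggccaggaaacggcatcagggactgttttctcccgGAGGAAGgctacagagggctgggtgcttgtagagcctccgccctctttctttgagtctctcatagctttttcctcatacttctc
Itgax: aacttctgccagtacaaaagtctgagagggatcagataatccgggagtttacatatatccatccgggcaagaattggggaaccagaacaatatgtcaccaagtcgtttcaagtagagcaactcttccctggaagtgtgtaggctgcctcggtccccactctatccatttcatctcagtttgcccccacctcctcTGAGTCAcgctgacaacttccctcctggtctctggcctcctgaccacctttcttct
In windows of this length the ETS letters occur in 10.6% of 32851 RefSeq promoters and the AP-1 letters in 6.75%. Of the 26 member genes in that table, with 29 windows, the ETS letters were in 7 (Itga2b, Itgam, Itgav, Itgb2l, Itgb6, Lama2 and Lamb3) and the AP-1 letters in Itgax alone.

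Among further chains of leukocytes, both subunits of the αE and β7 pair were higher on every CAF array by their brightest probe set. That receptor holds T cells of epithelia to E-cadherin. Itgae read 5.29, 4.35 and 4.57 on the NDF arrays and 5.44, 6.36 and 6.48 on the CAF arrays. Its difference was 1.36 ± 0.37 (adjusted p = 0.266), and a second probe set, on which the groups overlap because CAF replicate 1 lay within the NDF range, gave 0.80. Itgb7, which also pairs with α4 in gut-homing lymphocytes, read 5.24, 5.37 and 5.60 on the NDF arrays and 6.01, 6.39 and 6.85 on the CAF arrays. The difference was 1.01 ± 0.26 (adjusted p = 0.225). The gene of E-cadherin itself, Cdh1, averaged 7.18 ± 0.11 on NDF and 8.76 ± 0.94 on CAF arrays (adjusted p = 0.298). Itga4, whose product leukocytes use to bind VCAM, read 4.92, 5.45 and 3.89 on the NDF arrays and 4.73, 6.06 and 5.93 on the CAF arrays. The groups overlap, the difference was 0.82 ± 0.50 (0.39 without NDF replicate 3 and 1.24 without CAF replicate 1), and the median over 4 further probe sets was -0.023. Itgb2l, a β2-like gene, differed by -0.14 ± 0.17, and the platelet subunit Itga2b by -0.076 ± 0.31, both with overlapping groups.

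**Figure D3:**
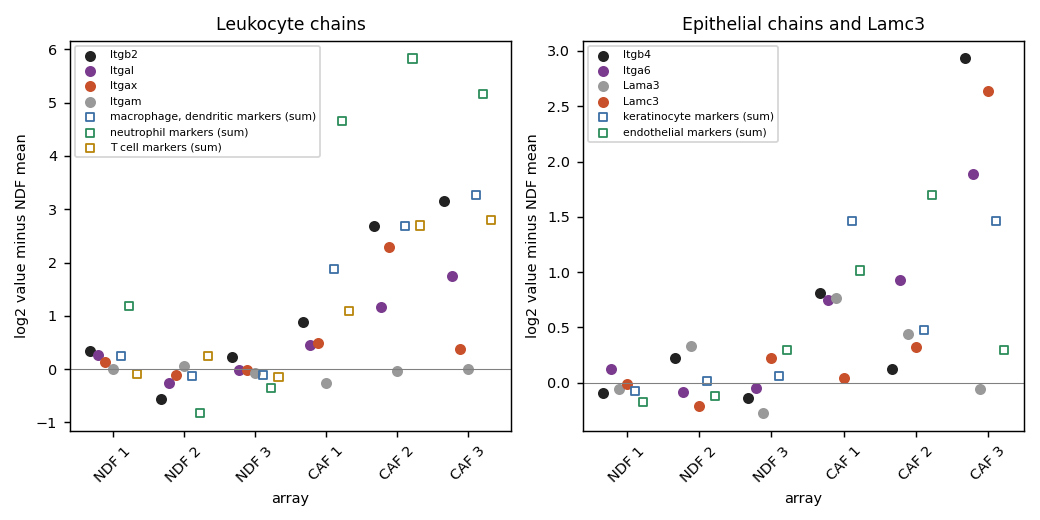
Values on each array minus the NDF mean (log2), with filled circles for single genes and open squares for summed marker lists, leukocyte chains on the left and epithelial chains with Lamc3 on the right. Itgb2 is lowest among the CAF arrays in replicate 1, Itgam stays near 0, and Itgb4 and Lamc3 are high in CAF replicate 3.

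Of the epithelial chains, Itga6 was higher on every CAF array, while Itgb4 and Lama3 overlapped between the groups. Itga6 read 10.30, 10.09 and 10.12 on the NDF arrays and 10.92, 11.10 and 12.06 on the CAF arrays. Its difference was 1.19 ± 0.32, or 2.28-fold (adjusted p = 0.257), and 0.84 without CAF replicate 3. The other Itga6 probe set differed by 1.36. The α6 subunit also pairs with β1 on endothelial and other cells, so Itga6 is not a gene of keratinocytes alone.

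Itgb4, whose product has α6 as its only partner, read 4.33, 4.65 and 4.29 on the NDF arrays and 5.24, 4.55 and 7.36 on the CAF arrays. CAF replicate 3 was the high array, and CAF replicate 2 lay within the NDF range. The difference was 1.29 ± 0.67 (adjusted p = 0.675) and 0.47 without CAF replicate 3. Lama3, the α chain of the epidermal laminin, read 5.52, 5.91 and 5.30 on the NDF arrays and 6.34, 6.02 and 5.52 on the CAF arrays. Its difference was 0.38 ± 0.28 (adjusted p = 0.803), and CAF replicate 3, the highest array for Itgb4, was the lowest CAF array here. Without CAF replicate 1 it was 0.19, without CAF replicate 3 0.60 and without NDF replicate 3 0.24, and a second, dimmer probe set differed by -0.056. Lamb3, the β chain of the same laminin, read 4.83, 5.48 and 5.76 on the NDF arrays and 5.49, 4.67 and 5.18 on the CAF arrays. It differed by -0.25 ± 0.32, with overlap, and by -0.51 to -0.022 when each array was left out in turn. The median of the 3 epithelial chains was 1.19, and 0.60 without CAF replicate 3.

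The summed keratinocyte level was 12.77 to 12.91 on the NDF arrays and 13.32 to 14.31 on the CAF arrays, and none of its 11 measured markers was under the median probe set on all arrays. Krt14, the keratin of the basal layer, averaged 9.39 ± 0.40 on NDF and 11.58 ± 0.79 on CAF arrays and the junction gene Perp 12.03 ± 0.061 on NDF and 12.60 ± 0.44 on CAF arrays. CAF replicates 1 and 3 had the same summed keratinocyte level, 14.31 and 14.31, and differed by 2.12 log2 units in Itgb4. Single keratinocyte markers were not equal on these arrays and differed in both directions. Krt1 read 10.44 on CAF replicate 1 and 11.33 on CAF replicate 3, and Krt15 read 9.28 and 7.59. For endothelial genes the sum was 10.17 to 10.64 on the NDF arrays and 10.64 to 12.04 on the CAF arrays, with CAF replicate 3 at the top of the NDF range. Tek, the gene of that list with the highest mean, read 9.19, 9.48 and 10.13 on the NDF arrays and 10.51, 10.58 and 6.99 on the CAF arrays. Of the 12 endothelial genes, 9 were higher on every CAF array, replicate 3 included (6.78% of all genes). The part of keratinocytes and endothelial cells in the Itga6 and Itgb4 values was not tested. The β6 subunit of injured epithelium, Itgb6, was near the floor on all arrays, averaging 3.01 ± 0.065 on NDF and 3.05 ± 0.26 on CAF arrays.

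Among collagen receptors, Itga1 had the smallest p of all members. Its product joins β1 in a receptor for collagen that fibroblasts, pericytes and vessel cells carry. Itga1 read 9.89, 10.15 and 10.39 on the NDF arrays and 10.99, 11.51 and 11.56 on the CAF arrays. Every CAF array was higher, and the gap between the lowest CAF and the highest NDF array, 0.60, was about as wide as the range of the CAF arrays, 0.57. The difference was 1.21 ± 0.24, or 2.32-fold, with an interval of 0.65 to 1.78 and a limma adjusted p of 0.118. Without CAF replicate 3 it was 1.11. Its dimmer probe set differed by 0.56, with CAF replicate 3 below all other arrays. The other collagen receptor genes overlapped between the groups. Itga10, known from cartilage, differed by 0.37 ± 0.28, with 0.077 without CAF replicate 2 and 0.59 without CAF replicate 1. Itga2, under the median probe set in both groups, differed by 0.073 ± 0.21. Of 8 cartilage genes, 3 were lower on every CAF array and 0 higher (8.66% and 6.78% of all genes). The summed level of pericyte and smooth muscle genes was 10.45 to 11.81 on the NDF arrays and 11.53 to 11.84 on the CAF arrays. The highest NDF sum is that of replicate 1, where Acta2, the smooth muscle actin gene, read 10.999 against 7.25 and 7.30 on the other NDF arrays. Of the 9 pericyte and smooth muscle genes, 3 were higher on every CAF array (Mcam by 2.38, Rgs5 by 1.58 and Notch3 by 0.80) and 0 lower. Over all genes the shares were 6.78% and 8.66%. The others overlapped between the groups, and 3 of them (Cspg4, Kcnj8 and Abcc9) had a lower CAF mean. Of the 12 endothelial genes, 9 were higher on every CAF array. The pericyte and smooth muscle genes are named after their values were seen. The part of pericytes and vessel cells in the Itga1 difference was not tested.

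Itgb8 had the highest difference among the β subunits outside the leukocyte and epithelial sets. It pairs with αv alone and is known for the release of active TGF-β from its latent complex. Itgb8 read 6.05, 6.56 and 5.97 on the NDF arrays and 7.50, 7.58 and 7.001 on the CAF arrays. The groups do not overlap, and the difference was 1.17 ± 0.25, or 2.25-fold (adjusted p = 0.151). With array quality weights, which gave CAF replicate 3 the lowest weight, the adjusted p was 0.0188 and the difference 1.35. It was 1.35 without that array (adjusted p = 0.0642). Its partner Itgav, the member with the smallest standard error, read 12.63, 12.66 and 12.58 on the NDF arrays and 12.45, 12.55 and 12.58 on the CAF arrays. The difference was -0.096 ± 0.16, with an interval of -0.48 to 0.28.

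The windows of Itga1 and Itgb8 are shown because these are the matrix receptor genes with the smallest p. Both lie on the minus strand of GRCm38.p6, at chr13:115101965-115102214 and chr12:119238277-119238526, and each line gives the 250 bases before the RefSeq gene start, 5′ to 3′ on the strand of the gene. Neither holds either motif, so no capitals appear, which says only that these letters are not in this window.
Itga1: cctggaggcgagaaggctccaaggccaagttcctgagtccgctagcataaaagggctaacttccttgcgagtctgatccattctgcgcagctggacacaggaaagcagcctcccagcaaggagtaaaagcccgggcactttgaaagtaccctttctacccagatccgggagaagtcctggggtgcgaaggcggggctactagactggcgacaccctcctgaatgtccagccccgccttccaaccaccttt
Itgb8: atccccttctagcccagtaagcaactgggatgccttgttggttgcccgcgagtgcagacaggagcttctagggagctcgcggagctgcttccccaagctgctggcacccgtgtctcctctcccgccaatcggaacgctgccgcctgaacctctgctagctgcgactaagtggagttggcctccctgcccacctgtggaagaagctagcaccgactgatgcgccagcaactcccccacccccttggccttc

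The other β subunits that fibroblasts carry overlapped between the groups on their brightest probe sets. Itgb1, the partner of most matrix-binding α subunits, read 10.16, 10.03 and 9.73 on the NDF arrays and 10.07, 9.85 and 9.50 on the CAF arrays. Its difference was -0.18 ± 0.22 (interval -0.71 to 0.36), and the median over 5 further probe sets was -0.022. Itgb3, which pairs with αv, read 8.79, 9.12 and 9.62 on the NDF arrays and 9.51, 9.40 and 9.02 on the CAF arrays. It differed by 0.14 ± 0.27. For Itgb5, another partner of αv, the 4 probe sets disagreed. The brightest differed by 0.087 ± 0.29 and another by -0.050, and the other 2 by -0.86 and -0.81. In that lower pair CAF replicate 3 read 6.38 and 6.60, against 8.15 or more on every other array. On the first of the pair every CAF array lay below every NDF array, and on the second the groups overlap.

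The fibronectin receptor subunit Itga5 was the only member with every CAF array below every NDF array. Its brightest probe set read 9.41, 9.005 and 9.20 on the NDF arrays and 8.92, 8.73 and 7.95 on the CAF arrays. The difference was -0.67 ± 0.29 (interval -1.36 to 0.020, adjusted p = 0.575), and -0.38 without CAF replicate 3, the lowest array. Its other probe sets did not share this direction. A probe set of middle brightness read 5.66, 6.34 and 5.89 on the NDF arrays and 7.10, 7.66 and 6.86 on the CAF arrays. A dim one read 3.76, 3.63 and 4.11 on the NDF arrays and 4.79, 5.26 and 5.23 on the CAF arrays. On both of these every CAF array was higher, by 1.25 and 1.26 (adjusted p = 0.233 and 0.124 over all 34945 probe sets, of which 0.226% passed). The remaining one differed by -0.23. With the mean of its probe sets Itga5 differed by 0.40, so no direction is given for this gene.

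The other α subunits of matrix receptors had intervals that include 0. Itga8, the nephronectin receptor subunit, averaged 8.67 ± 0.44 on NDF and 8.16 ± 0.14 on CAF arrays (difference -0.51 ± 0.26, and -0.30 without NDF replicate 2). Itga9 differed by -0.37 ± 0.28, with -0.18 without CAF replicate 3 and -0.67 without CAF replicate 1. The laminin receptor subunits Itga3 and Itga7 differed by -0.033 ± 0.20 and 0.16 ± 0.18. Of the 25 chains left after the leukocyte and epithelial chains, Itgae, Itgb7 and Itgb2l, 11 differences were above 0 and 14 below, with a median of -0.053.

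**Figure D4:**
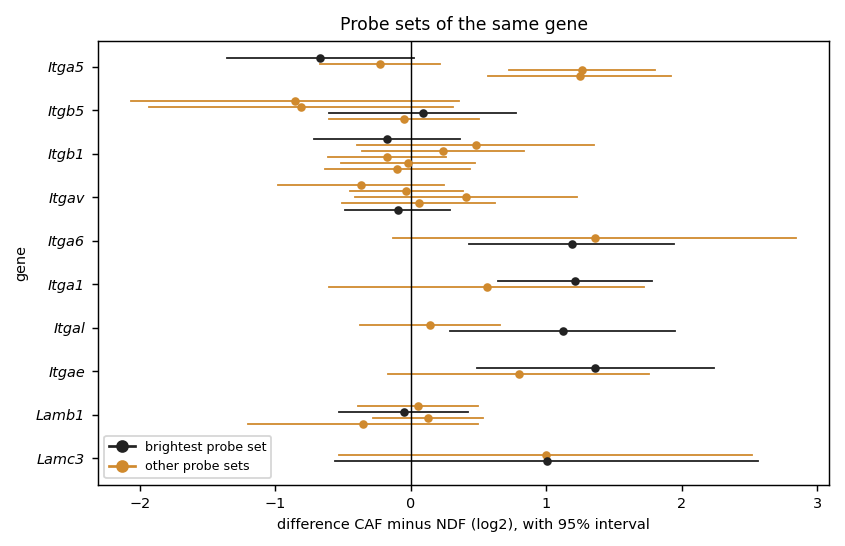
Differences between CAF and NDF (log2) with 95% intervals for each probe set of 10 genes, the brightest in black and the others in orange. The probe sets of Itga5 lie on both sides of 0, those of Itga6, Itgae and Lamc3 lie on the same side, and those of Itgb1 and Lamb1 have intervals that include 0.

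No laminin chain separated the groups on all arrays, where 15.4% of all genes did. An unadjusted p under 0.05 was reached by 0 of 10, against 8.95% of all genes. The γ1 chain Lamc1, part of most laminins, read 10.89, 10.84 and 11.35 on the NDF arrays and 10.88, 10.43 and 10.63 on the CAF arrays. Its difference was -0.38 ± 0.22 (interval -0.91 to 0.16), or -0.21 without NDF replicate 3, and its other probe set differed by -0.53. Lamb1, its usual β partner, read 10.10, 9.68 and 9.85 on the NDF arrays and 10.02, 9.79 and 9.67 on the CAF arrays. It differed by -0.053 ± 0.20, with an interval of -0.52 to 0.42. Lamb2, the β chain of nerve, muscle and vessel laminins, read 8.73, 8.85 and 8.94 on the NDF arrays and 8.76, 8.35 and 7.39 on the CAF arrays. CAF replicate 3 was lowest, and the difference was -0.67 ± 0.35, or -0.29 without that array.

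The α chains of mesenchymal and vessel laminins gave lower means in CAF, within the spread. Lama2, the chain of muscle and nerve basement membranes, read 9.63, 10.44 and 10.15 on the NDF arrays and 10.15, 9.66 and 8.92 on the CAF arrays. It differed by -0.50 ± 0.36, by -0.17 without CAF replicate 3 and by -0.79 without CAF replicate 1. Lama4, the chain of endothelial and mesenchymal basement membranes, read 9.83, 9.99 and 10.12 on the NDF arrays and 10.24, 9.95 and 9.37 on the CAF arrays. Its difference was -0.12 ± 0.26, and 0.12 without CAF replicate 3. Lama5 and the embryonic chain Lama1 differed by 0.14 ± 0.22 and -0.15 ± 0.32, and Lama1 was under the median probe set in both groups. The γ3 chain Lamc3 read 5.22, 5.03 and 5.46 on the NDF arrays and 5.28, 5.56 and 7.87 on the CAF arrays. Only CAF replicate 3 was high, the difference was 1.002 ± 0.66, and without that array it was 0.18. The other Lamc3 probe set differed by 0.99.

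The genes that match the prefix without being chains all had lower CAF means, with overlapping groups. Itgbl1, a secreted relative of the β subunits, read 11.21, 11.22 and 11.47 on the NDF arrays and 11.39, 10.62 and 9.29 on the CAF arrays. Its difference of -0.87 ± 0.50 was -0.30 without CAF replicate 3 and -1.35 without CAF replicate 1. Itgb3bp, which encodes a centromere protein, differed by -0.90 ± 0.49, by -0.42 without CAF replicate 3 and by -1.39 without CAF replicate 1. Itgb1bp1, which encodes a protein that binds the β1 tail, differed by -0.54 ± 0.26 (-0.36 without CAF replicate 3), and the muscle gene Itgb1bp2 by -0.20 ± 0.19.

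Other genes of the pathway were read from 3 lists, and none of their members passed the test, where 0.517% of all genes did. Of 28 measured adaptors and focal adhesion genes, 2 with a higher CAF mean and 1 with a lower one had an unadjusted p below 0.05. Over all genes the shares were 4.93% and 4.02%. The median difference of the list was 0.0066. Tns1, which encodes a tensin that ties integrins to actin, averaged 10.24 ± 0.19 on NDF and 9.55 ± 0.29 on CAF arrays (adjusted p = 0.371). Zyx, which encodes zyxin of focal adhesions, averaged 7.37 ± 0.13 on NDF and 8.09 ± 0.54 on CAF arrays, and the kinase gene Ptk2b averaged 6.001 ± 0.61 on NDF and 7.55 ± 1.23 on CAF arrays (adjusted p = 0.534 and 0.535). CAF replicate 3 was the highest array for both, and without it they differed by 0.41 and 0.86, against 0.72 and 1.55 with it. With the mean of all probe sets the differences were 0.83 for Ptk2b and -0.43 for Tns1, against -0.69 for the brightest of Tns1. Fermt3, the kindlin of blood cells, named after its value was seen, differed by 0.017 ± 0.19.

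Of 21 basement membrane and hemidesmosome partners, 1 with a higher CAF mean and 2 with a lower one had an unadjusted p below 0.05 (4.93% and 4.02% of all genes). The median difference was -0.12. The lower ones are the type IV collagen chains Col4a4 and Col4a5. Of the other type IV chains, Col4a3 and Col4a6 differed by -0.44 and -0.21, and Col4a1 and Col4a2 by 0.20 and 0.29. Every CAF array was lower for Col4a3 and higher for Col4a2 (8.66% and 6.78% of all genes), so type IV chains had no common direction. Col4a4 read 8.76, 9.06 and 9.56 on the NDF arrays and 8.19, 7.48 and 6.46 on the CAF arrays, and Col4a5 read 8.11, 7.98 and 8.27 on the NDF arrays and 7.13, 6.03 and 3.79 on the CAF arrays. CAF replicate 3 was lowest for both, and without it the differences were -1.29 and -1.54, against -1.75 and -2.47 with it (adjusted p = 0.235 and 0.362 with all arrays). With the mean of all probe sets they were -0.75 and -1.60. Col18a1, which encodes the collagen that holds endostatin, averaged 7.56 ± 0.35 on NDF and 8.33 ± 0.19 on CAF arrays (adjusted p = 0.339).

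Of 17 measured integrin ligands, 3 with a higher CAF mean and 1 with a lower one had an unadjusted p below 0.05 (4.93% and 4.02% of all genes). The median difference was -0.14. F11r, which encodes a junction protein that binds LFA-1, averaged 3.96 ± 0.082 on NDF and 5.71 ± 0.84 on CAF arrays (adjusted p = 0.181). Its difference was 1.76 by the brightest probe set and 0.87 by the mean of all. Cdh1 is given above. Icam1, the remaining higher one, averaged 9.61 ± 0.12 on NDF and 10.22 ± 0.30 on CAF arrays (limma adjusted p = 0.43). The type I collagen chain Col1a2 averaged 13.72 ± 0.023 on NDF and 13.20 ± 0.17 on CAF arrays (limma adjusted p = 0.402). With array quality weights F11r and Cdh1 had an adjusted p of 0.0176 and 0.0485, and with an intensity trend Col1a2 had 0.0471. Both F11r and Cdh1 are also genes of epithelia, and the summed keratinocyte level was 12.77 to 12.91 on the NDF arrays and 13.32 to 14.31 on the CAF arrays. Their part in these values was not tested.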

How the data were processed

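Per the labels' protocols, RNA of the sorted cells went through a single amplification (WT-Ovation) before hybridisation. The deposited table holds log2 values from 2.20 to 14.60. GCOS and RMA are named in the submitters' processing notes, without versions. No columns were left out. Of 45101 probe sets, 64 are controls, 34945 name 1 gene in the platform annotation, 932 name several and 9160 are unnamed here. By gene identifier 34741 matched RefSeq (GRCm38.p6), which also gave the promoter sequences. Each gene was read from its brightest probe set, by the mean of the 6 arrays (18193 genes), and no filter was applied.

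The comparison used limma 3.58.1 in R 4.3.3 (lmFit, eBayes, two-sided, group as the only term), with Benjamini-Hochberg adjusted p values over all genes and a threshold of 0.05. Standard errors and intervals are the moderated ones. The fit was tested on simulated data. Classes and lists are described by counts and medians, with no set test. The members, lists, motifs and classes were chosen with earlier results of these data known.

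Every member is given. Values on every array are printed for the leukocyte and epithelial classes and for the 8 other chains with the highest mean (Itgav, Lamc1, Itga1, Lama4, Itgb1, Lamb1, Lama2 and Itgb3). The rule added up to 3 genes of each pathway list by p and up to 2 of each marker list by mean. Array values of other members, and Camp, Ltf, Ngp, Mmp9, Fermt3, Krt1, Krt15, Ptprc, Cd14 and Tyrobp, were chosen after their values were seen. So were Icam1, Col4a1, Col4a2, Col4a3 and Col4a6. Marker genes of the Schwann cell, mast cell, platelet and striated muscle lists stand in no result above. Of their 6, 8, 6 and 8 measured genes, 1, 3, 2 and 0 were above on every CAF array (6.78% of all genes). Below on every CAF array were 0, 0, 0 and 2 (8.66% of all genes). The summed mast cell level was 7.88 to 8.45 on the NDF arrays and 9.28 to 10.86 on the CAF arrays. Alternatives covered the replicate block, normalisation, a filter on dim genes, the probe set rule, the variance model, the threshold and leaving out each array. Python 3.11.15 and matplotlib 3.10.9 drew the figures.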

Additional observations from a re-analysis of the deposited data

How the results depend on the processing

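Of 424 counts and medians of the member classes and pathway lists under the alternatives, 416 stayed, a count by being 0 again and a median by lying within 1 SD. Of 806 differences of single genes, 770 kept their direction and their side of the threshold. All these counts were 0 and none of these genes passed in the fit reported, so the numbers do not measure how stable a call is. With array quality weights 1 member was called higher (Itgb8, among the other chains), as were 2 ligands (Cdh1 and F11r), and with an intensity trend 1 ligand was called lower (Col1a2). Leaving out each array gave 0 to 1 members called higher and 0 to 1 leukocyte chains, the call being Itgb2 without CAF replicate 1. The median of the epithelial chains ranged from 0.60 to 1.41 over these fits, that of the other chains from -0.069 to 0.086, and that of the leukocyte chains from 0.77 to 1.39. An adjusted p under 0.1 added no member. Over all genes 5 to 156 were called when an array was left out, 438 with array quality weights, 155 with an intensity trend and 94 in the fit reported.

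The sign turned for 13 members, 12 of which differed by less than 0.5 log2 units, and 0 of these 31 values had an adjusted p under 0.05 by limma. The cause was not tested. With array quality weights the differences were -0.021 for Itga2, 0.23 for Itga2b, 0.075 for Itgb1, -0.20 for Itgb5, 0.11 for Lama4, -0.064 for Lama5 and 0.090 for Lamb1. With the mean of all probe sets they were 0.041 for Itga3, 0.40 for Itga5, 0.041 for Itgb1, 0.052 for Itgb2l, -0.0092 for Itgb3 and -0.41 for Itgb5. Without cross-matching probe sets they were 0.033 for Itga3, 1.25 for Itga5, -0.81 for Itgb5 and 0.049 for Lamb1. Cyclic loess gave 0.035 for Itga3 and 0.038 for Lamb1. When an array was left out the differences ranged from -0.089 to 0.17 for Itga2, -0.39 to 0.18 for Itga2b, -0.15 to 0.097 for Itga3, -0.056 to 0.36 for Itgb3, -0.22 to 0.27 for Itgb5, -0.10 to 0.12 for Itgb6, -0.51 to 0.065 for Lama1, -0.32 to 0.12 for Lama4, -0.0067 to 0.28 for Lama5 and -0.15 to 0.057 for Lamb1.

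No pairing by replicate number was visible. The deviations of same-numbered arrays correlated at -0.15, 0.11 and -0.013, and those of differently numbered arrays at -0.11 to 0.12. With 3 arrays per group these values cannot exclude that same-numbered arrays belong together. With the replicate block 0 members and 20 of all genes were called, and the medians were 1.09 for leukocyte, 1.19 for epithelial and -0.043 for other chains. Testing every probe set gives several values per gene, so no single gene was read under it, and the filter at the median probe set left 30 members. Signal near the floor limits Itgam, Itgax, Itgb6, Itga2, Itga7, Lama1 and Itgb1bp2, whose higher group mean was under the median probe set (4.84). The filter also left out Itgb2, with an NDF mean of 3.65, and Itgb2l.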
